A study of Mus musculus with 23 samples.

Results

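Beta-oxidation shortens fatty acids by repeated rounds of dehydrogenation, hydration, a second dehydrogenation and thiolytic cleavage, each round releasing acetyl-CoA. Mitochondria carry it out on most dietary fatty acids and pass the electrons through the electron transfer flavoprotein to the respiratory chain, while peroxisomes take very long and branched chains. In liver and muscle, many of these enzymes are known to be transcribed under the PPAR nuclear receptors, which bind fatty acids, and in the tongue the circumvallate papilla is a site where dietary fat is sensed. The genes described here are 37 enzymes and membrane proteins of this pathway, chosen by name, with earlier results of these data known but by no threshold on their values, among 35019 gene symbols on the array. Where several probes served a gene, the brightest on average was used. All 37 were among the 28366 genes kept for testing, 36 of them well above background on all 23 arrays and Abcd2 on 9.

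Messenger RNA was measured on 1-colour Agilent arrays in circumvallate papillae, the taste bud-bearing structure far back on the tongue, from 23 samples of male C57Bl6j mice. The 7 Lean samples came from mice on standard chow with 3% fat by weight. The 8 DIO samples came from mice on an obesogenic high-fat diet with much saturated fat. The labels do not define DIO-R, which is read here as the DIO mice that were restricted to 60% of the energy eaten freely (n = 8). Both DIO and DIO-R mice had therefore received the obesogenic diet, and no source used here says how long either regime lasted or at what hour tissue was taken. Nor does any label say that each sample is a separate animal, so the p-values measure the spread between samples, which may in part be technical.

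On each array 66.9% to 78.4% of probes exceeded background clearly, no spot was saturated, and each of the 3 slides held all 3 groups. Slide did have an effect: 201 of the genes kept (0.709%) varied with it, taking 0.05 as the limit on adjusted p. With that limit, 1 gene differed in DIO against Lean, 17 in DIO-R against DIO and 36 in DIO-R against Lean. More genes thus varied with slide than in any comparison of groups. The labelled tissue was checked against its markers. All 12 markers of type II taste cells, the cells that detect sweet, bitter and umami, were kept by the background filter, with summed linear levels of 49.2 to 62.5 in Lean, 27.4 to 76.9 in DIO and 49.8 to 73.3 in DIO-R, in multiples of an array's 75th percentile. Skeletal muscle markers were abundant too, with summed levels of 918 to 3596 in Lean, 1308 to 3123 in DIO and 454 to 2603 in DIO-R. Markers of both tissues were thus present, although the epithelium had been freed from the tissue beneath it with enzymes. In bulk RNA, fewer cells of a type and less RNA per cell cannot be told apart.

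Every level below is a log2 intensity relative to the 75th percentile of its array, and every difference is a log2 difference between group means with its standard error (SE), from 1 limma fit of all 23 arrays. To pass, a gene needed an adjusted p below 0.05, with adjustment over all 28366 genes. The 3 comparisons share groups, so their values are set side by side and are not independent of each other.

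The members that passed were Eci3 and Eci2, which encode enoyl-CoA isomerases. These enzymes move a double bond of an unsaturated fatty acid so that it can continue through beta-oxidation. Eci3 is known as a peroxisomal enzyme and Eci2 is found in both peroxisomes and mitochondria. The 2 genes are neighbours on chromosome 13, with 13759 bases and no protein-coding gene between them in the RefSeq table (GRCm38.p6). Their upstream windows, 250 bases before each transcription start on the minus strand, are shown because these genes lead the results. Capitals mark GGGCGG or CCAAT on either strand. The first is chr13:34963810-34964059 and the second chr13:34994145-34994394 (GRCm38.p6).
Eci3: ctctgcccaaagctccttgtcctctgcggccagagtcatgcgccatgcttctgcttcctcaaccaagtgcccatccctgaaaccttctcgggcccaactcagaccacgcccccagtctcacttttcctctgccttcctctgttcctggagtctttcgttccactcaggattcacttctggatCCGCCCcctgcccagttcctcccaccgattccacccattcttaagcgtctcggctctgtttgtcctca
Eci2: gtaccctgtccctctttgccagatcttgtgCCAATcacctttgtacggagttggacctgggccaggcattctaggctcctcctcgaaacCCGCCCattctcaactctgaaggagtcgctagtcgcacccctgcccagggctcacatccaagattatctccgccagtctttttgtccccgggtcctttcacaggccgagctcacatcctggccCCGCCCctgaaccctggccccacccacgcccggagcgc

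Because Eci2 and Eci3 are related genes, their probes were compared as well. The Eci3 probe has 60 bases and, per the file headers, lies on chromosome 13 from 35038935 to 35039975 (mm9, minus strand), a span of 1041 bases, so it crosses an exon junction.
Eci3 probe: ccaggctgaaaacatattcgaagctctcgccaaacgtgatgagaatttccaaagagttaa
The Eci2 probe lies at 35069638 to 35069697 on the same strand of chromosome 13 (mm9). The longest run that both probes contain is 11 bases, tgatgagaatt, and no offset without gaps aligned more than 20 of their 60 letters.

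Eci3 levels (lowest, median and highest sample) were 2.34, 2.53 and 2.72 in Lean, 2.33, 2.50 and 2.61 in DIO, and 1.61, 1.91 and 2.34 in DIO-R. DIO-R 4, 5, 8 and 10 were the lowest, and DIO-R 2 was the 1 DIO-R sample that reached the range of the other groups. Eci3 fell 1.42-fold in DIO-R against DIO (-0.51 ± 0.09 SE, adjusted p = 0.0391) and all 8 DIO-R samples lay below the DIO mean. Against Lean it fell 1.50-fold (-0.58 ± 0.10 SE, adjusted p = 0.00834), again with all 8 below the Lean mean. DIO and Lean differed by -0.07 ± 0.10 SE (adjusted p = 0.884).

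Eci2 levels were 4.21, 4.47 and 4.70 in Lean, 4.17, 4.39 and 4.53 in DIO, and 3.54, 3.92 and 4.21 in DIO-R. The same DIO-R samples, 4, 5, 8 and 10, were the lowest, and the groups overlapped at the edge. Eci2 fell 1.46-fold in DIO-R against Lean (-0.55 ± 0.10 SE, adjusted p = 0.0336). Against DIO the difference was -0.47 ± 0.10 SE and did not pass (adjusted p = 0.102), although all 8 DIO-R samples were below the mean of DIO. Within slides 1, 2 and 3, Eci3 differed from DIO by -0.44, -0.70 and -0.32, and Eci2 by -0.32, -0.62 and -0.41.

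The call of Eci3 against Lean held when each of the 23 samples was left out in turn (adjusted p 0.00278 to 0.0304). Its call against DIO was lost without any 1 of 16 samples, namely DIO 1, 2, 5, 6, 7 or 8, DIO-R 4, 5, 6, 8 or 10, and Lean 4, 5, 6, 9 or 10 (adjusted p up to 0.127, difference -0.56 to -0.46 over the 23 fits). The call of Eci2 against Lean was lost without Lean 4, 5, 7, 9 or 10 or without DIO-R 4, 5, 8 or 10 (adjusted p up to 0.0954, difference -0.59 to -0.49).

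**Figure D1:**
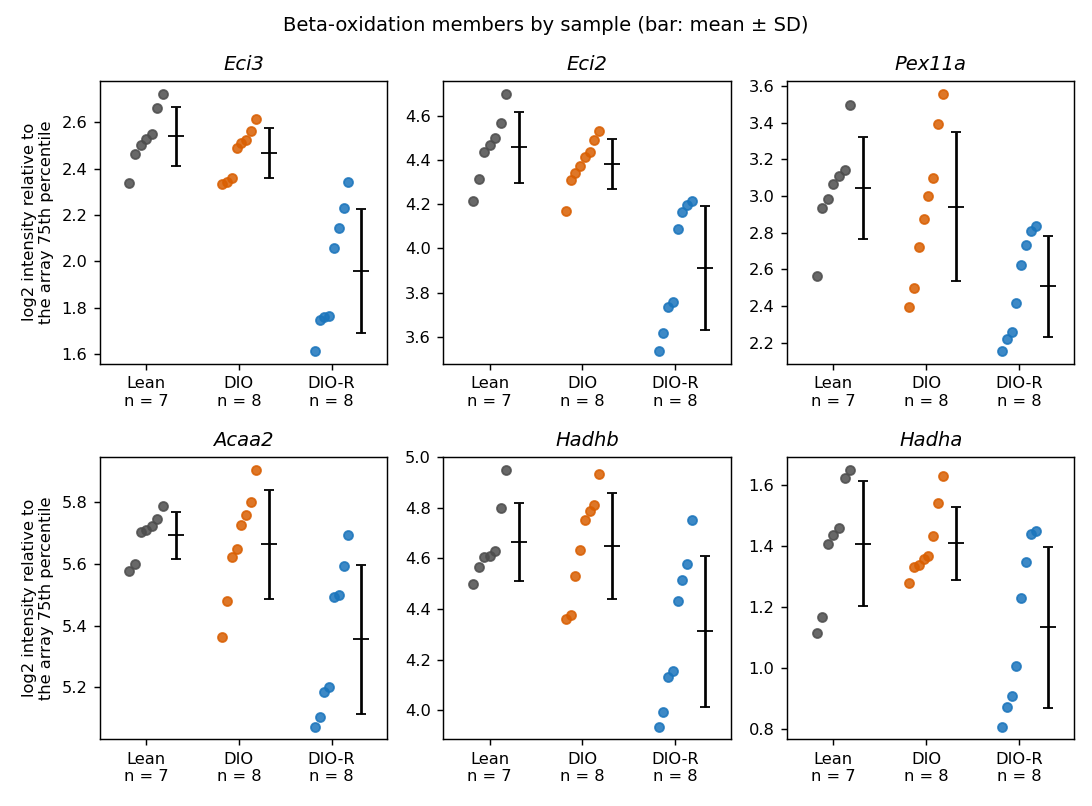
Levels of 6 members in every sample, as log2 intensity relative to the array's 75th percentile, by group, with bars for mean ± SD. Eci3 and Eci2 in DIO-R lie mostly below the other groups, and in Acaa2, Hadhb and Hadha the DIO-R samples spread downward from the range of the other groups.

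In DIO-R against DIO, 1 member of 37 passed, Eci3, against 0.0599% of all genes tested and 0.0388% that passed with a lower level. At an unadjusted p under 0.05, 9 members were lower and none higher, against 3.79% of all genes lower and 5.94% higher. The median difference over the members was -0.12, beside 0.01 over all genes, and 26 members were lower and 11 higher, against 48.3% of all genes lower. In DIO-R against Lean 2 members passed, both lower, against 0.127% of all genes and 0.074% lower. Here 9 members were lower and none higher at an unadjusted p under 0.05, against 4.52% of all genes lower and 4.43% higher. The median was -0.14, beside -0.02 over all genes, and 32 members were lower, against 55.4% of all genes. In DIO against Lean no member passed by limma, against 0.00353% of all genes, and 1 was lower at an unadjusted p under 0.05 (Echs1), against 4.9% of all genes. The median there was -0.02, beside -0.04 over all genes, with 23 members lower, against 58.9% of all genes.

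**Figure D2:**
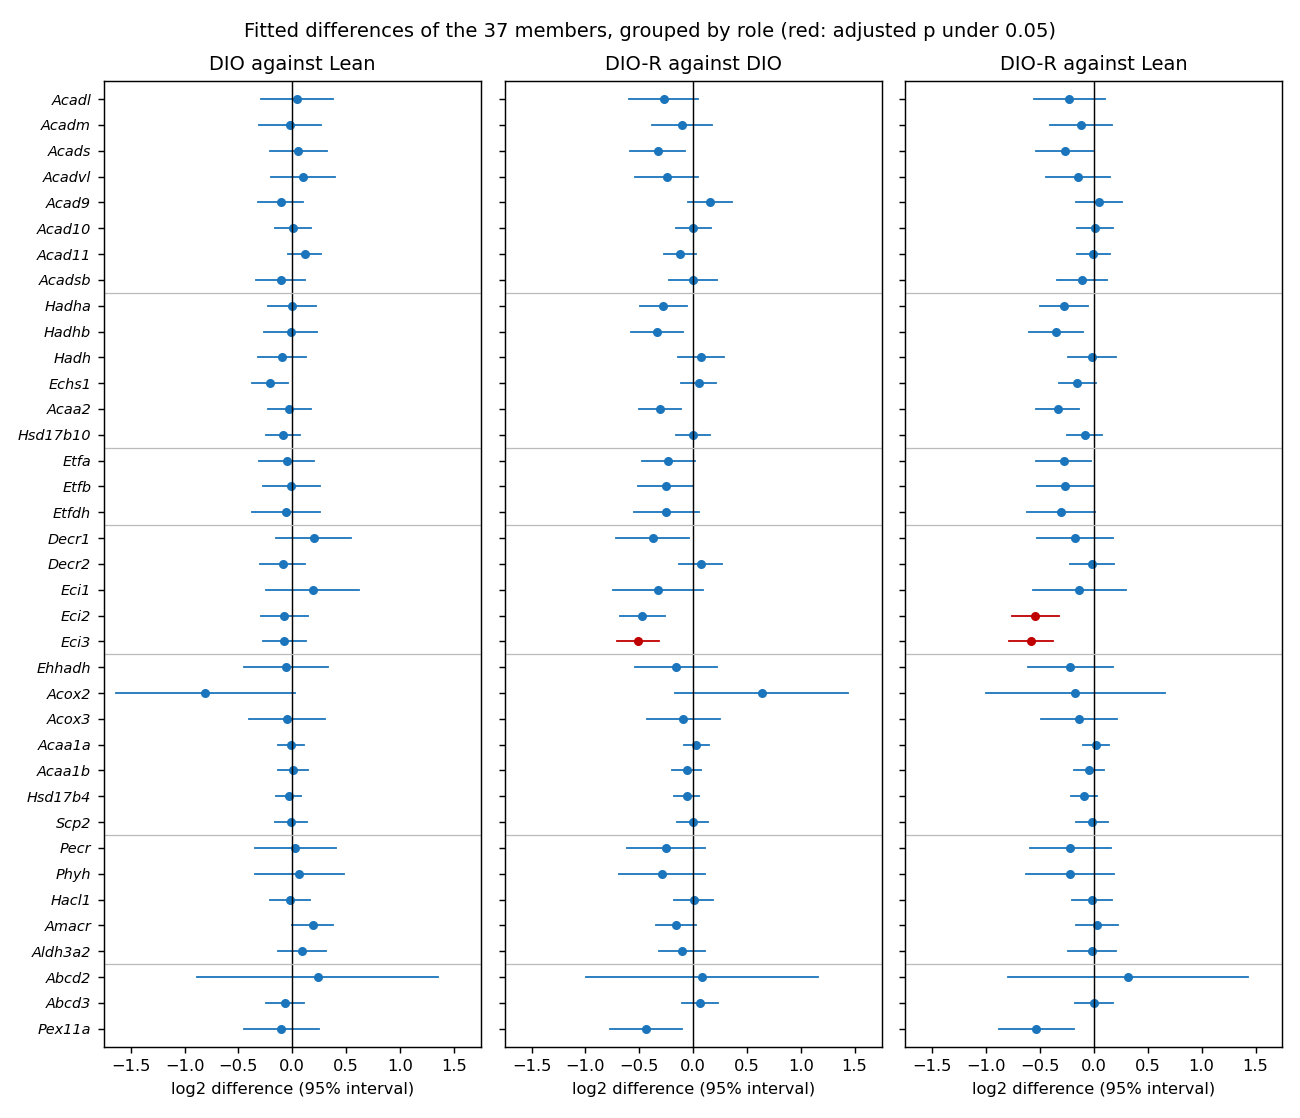
Fitted log2 difference of each of the 37 members with its 95% interval, in 3 panels for the 3 comparisons, with lines between role groups. Red marks an adjusted p under 0.05, which Eci3 has in both DIO-R comparisons and Eci2 in DIO-R against Lean, and most DIO against Lean values lie near 0.

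Acyl-CoA dehydrogenases take the first step in mitochondria, each for its own chain length. Of the 8 members, 5 were lower in DIO-R than in DIO and 6 lower than in Lean, with medians of -0.11 and -0.12, and none passed. Acads, for short chains, lay at -0.26, 0.22 and 0.33 in Lean, -0.06, 0.17 and 0.58 in DIO and -0.59, -0.23 and 0.24 in DIO-R (lowest, median, highest). The DIO-R range reached lower but overlapped both others. The difference was -0.33 ± 0.12 SE against DIO (adjusted p = 0.479) and -0.27 ± 0.13 SE against Lean (adjusted p = 0.542).

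The medium-chain enzyme Acadm differed from DIO by -0.10 ± 0.13 SE and from Lean by -0.12 ± 0.14 SE. Acadvl, for very long chains, gave -0.25 ± 0.14 SE and -0.15 ± 0.14 SE, and Acadl, for long chains, -0.27 ± 0.15 SE and -0.23 ± 0.16 SE. None of these passed, and their 95% intervals all reached past 0. Acad9, which is also an assembly factor of respiratory complex I, went the other way in sign. Its levels were 2.99, 3.26 and 3.64 in Lean, 2.90, 3.22 and 3.51 in DIO and 3.19, 3.28 and 3.60 in DIO-R, a difference from DIO of 0.15 ± 0.10 SE (adjusted p = 0.591).

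Acad11 and Acadsb were among the 10 members with the smallest p in DIO against Lean. Acad11 lay at 2.26, 2.29 and 2.72 in Lean, 2.37, 2.53 and 2.71 in DIO and 2.21, 2.44 and 2.53 in DIO-R. Acadsb, which serves branched short chains, lay at 0.31, 0.58 and 0.88, at 0.11, 0.45 and 0.92, and at 0.29, 0.47 and 0.65 in the same order of groups. The ranges overlapped throughout, and DIO differed from Lean by 0.11 ± 0.07 SE for Acad11 (adjusted p = 0.708) and -0.11 ± 0.11 SE for Acadsb (adjusted p = 0.843). A second, dimmer Acadsb probe differed by 0.61 ± 0.38 SE in DIO-R against DIO, where the chosen probe gave 0.00 ± 0.11 SE.

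Hadha and Hadhb encode the alpha and beta subunits of the mitochondrial trifunctional protein, which takes long chains through the last 3 steps of a round. They stand head to head on chromosome 5, with 272 bases between their starts in the RefSeq table, so that 228 bases of their upstream windows are shared on opposite strands. The window of Hadhb, chr5:30155003-30155252 on the plus strand (GRCm38.p6), is shown because it holds all of that shared stretch, with GGGCGG in capitals.
Hadhb: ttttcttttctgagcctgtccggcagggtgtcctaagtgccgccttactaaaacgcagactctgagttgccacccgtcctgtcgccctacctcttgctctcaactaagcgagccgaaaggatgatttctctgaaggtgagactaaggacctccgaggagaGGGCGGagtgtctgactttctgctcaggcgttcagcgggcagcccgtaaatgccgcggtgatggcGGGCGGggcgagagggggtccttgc

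Hadhb levels were 4.50, 4.61 and 4.95 in Lean, 4.36, 4.69 and 4.93 in DIO, and 3.94, 4.29 and 4.75 in DIO-R. Hadha levels were 1.11, 1.44 and 1.65, then 1.28, 1.36 and 1.63, then 0.81, 1.12 and 1.45. For both genes DIO-R 4, 5, 8 and 10 were the 4 lowest of the 23 samples and the other DIO-R samples lay within the range of the other groups. Hadhb differed by -0.34 ± 0.12 SE from DIO (adjusted p = 0.447) and -0.35 ± 0.12 SE from Lean (adjusted p = 0.344). Hadha differed by -0.28 ± 0.10 SE and -0.27 ± 0.11 SE (adjusted p = 0.479 and 0.437).

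Acaa2, the mitochondrial thiolase that cleaves off acetyl-CoA, lay at 5.58, 5.71 and 5.79 in Lean, 5.36, 5.69 and 5.91 in DIO and 5.07, 5.35 and 5.69 in DIO-R. Lean was narrow, and 6 of the 8 DIO-R samples lay below all of it. Acaa2 differed by -0.31 ± 0.09 SE from DIO (adjusted p = 0.414) and by -0.34 ± 0.10 SE from Lean (adjusted p = 0.214), the third smallest p of the members in each.

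Echs1, the short-chain enoyl-CoA hydratase, had the smallest p of the members in DIO against Lean. It lay at 3.29, 3.52 and 3.59 in Lean, 3.02, 3.30 and 3.41 in DIO and 3.06, 3.33 and 3.61 in DIO-R. All 8 DIO samples lay below the Lean mean, while the ranges overlapped, and the difference of -0.21 ± 0.08 SE did not pass (adjusted p = 0.443). Hsd17b10, a dehydrogenase of short branched chains, lay at 3.99, 4.21 and 4.25, at 3.81, 4.09 and 4.24, and at 3.91, 4.09 and 4.29 in Lean, DIO and DIO-R. Its DIO against Lean difference was -0.09 ± 0.08 SE (adjusted p = 0.821). Hadh, the short-chain hydroxyacyl-CoA dehydrogenase, differed by at most 0.09 in size in the 3 comparisons.

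The electron transfer flavoprotein (Etfa and Etfb) and its ubiquinone oxidoreductase (Etfdh) take the electrons from all the acyl-CoA dehydrogenases. All 3 were lower in DIO-R in both comparisons and none passed. Etfa lay at 4.41, 4.55 and 5.00 in Lean, 4.25, 4.67 and 4.94 in DIO and 4.06, 4.39 and 4.67 in DIO-R. Etfb lay at 5.79, 5.98 and 6.11, then 5.64, 5.99 and 6.27, then 5.25, 5.68 and 6.14, and Etfdh at 2.82, 3.26 and 3.65, then 2.74, 3.29 and 3.46, then 2.53, 2.86 and 3.33. The DIO-R ranges reached lower in each case and overlapped both others. Against Lean the differences were -0.28 ± 0.12 SE for Etfa (adjusted p = 0.508), -0.27 ± 0.13 SE for Etfb (0.55) and -0.31 ± 0.15 SE for Etfdh (0.57). Against DIO they were -0.23, -0.26 and -0.25. A second Etfa probe gave -0.31 ± 0.11 SE against DIO and -0.30 ± 0.11 SE against Lean.

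Besides Eci2 and Eci3, unsaturated chains need the mitochondrial isomerase Eci1 and the dienoyl-CoA reductases Decr1, of mitochondria, and Decr2, of peroxisomes. Decr1 lay at 3.90, 4.33 and 4.60 in Lean, 3.94, 4.50 and 4.78 in DIO and 3.60, 4.06 and 4.70 in DIO-R. DIO-R spread from below the other groups to near the top of DIO, a difference from DIO of -0.37 ± 0.16 SE (adjusted p = 0.499) and from Lean of -0.18 ± 0.17 SE. A second Decr1 probe gave -0.57 ± 0.25 SE against DIO.

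Eci1 spread widely, with levels of 2.66, 3.29 and 4.15 in Lean, 3.01, 3.48 and 3.85 in DIO and 2.62, 3.01 and 3.74 in DIO-R. Its differences were -0.32 ± 0.20 SE from DIO and -0.13 ± 0.21 SE from Lean, neither past the test. Decr2 lay at 0.42, 0.98 and 1.17, then 0.54, 0.80 and 0.95, then 0.72, 0.83 and 0.97. Lean spread most for Decr2, and its differences were 0.07 ± 0.10 SE from DIO and -0.02 ± 0.10 SE from Lean.

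The peroxisomal spiral starts with acyl-CoA oxidases and continues with multifunctional enzymes and thiolases. Of its 7 members none passed, and the medians were -0.06 against DIO and -0.10 against Lean. Several were among the steadiest genes measured. Hsd17b4 and Acaa1a, a multifunctional enzyme and a thiolase, had within-group SDs of 0.0912 and 0.0942, smaller than those of all but 1.48% and 1.91% of the genes kept. Their 95% intervals in DIO-R against DIO ran from -0.18 to 0.05 and from -0.09 to 0.15. The interval of Scp2, a thiolase and sterol carrier, ran from -0.15 to 0.14, and that of the second 3-ketoacyl-CoA thiolase, Acaa1b, from -0.19 to 0.08.

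Acox2, the oxidase of bile acid intermediates and branched chains, varied far more. It lay at -1.38, 0.34 and 1.74 in Lean, -1.59, -0.36 and 0.04 in DIO and -1.13, -0.07 and 1.47 in DIO-R. Lean and DIO-R each spread more widely than DIO, and the 3 ranges overlapped. DIO differed from Lean by -0.81 ± 0.40 SE (adjusted p = 0.575) and DIO-R from DIO by 0.63 ± 0.39 SE (adjusted p = 0.574). With the keratinocyte and fibroblast marker scores as covariates the second difference was 0.10. Ehhadh, the bifunctional enzyme, and Acox3 gave -0.16 ± 0.18 SE and -0.09 ± 0.16 SE against DIO. The other, dimmer Acox3 probes, well above background on all 23 arrays, gave 0.02 ± 0.07 SE and 0.00 ± 0.11 SE.

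Members of alpha-oxidation and branched chain handling (Pecr, Phyh, Hacl1, Amacr and Aldh3a2) did not pass in any comparison. Amacr, a racemase that prepares branched chains, lay at 1.24, 1.45 and 1.85 in Lean, 1.51, 1.62 and 1.82 in DIO and 1.25, 1.47 and 1.74 in DIO-R. All 8 DIO samples lay above the Lean mean, with overlap, and the difference was 0.19 ± 0.09 SE (adjusted p = 0.575). In DIO-R against DIO the 5 genes ran from -0.29 ± 0.19 SE for Phyh, the phytanoyl-CoA hydroxylase, to 0.00 ± 0.09 SE for Hacl1.

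Among the peroxisomal membrane proteins, Pex11a promotes division of peroxisomes. It lay at 2.56, 3.07 and 3.50 in Lean, 2.39, 2.94 and 3.56 in DIO and 2.15, 2.52 and 2.83 in DIO-R. All 8 DIO-R samples lay below the means of both other groups, while the ranges overlapped. The differences were -0.44 ± 0.16 SE from DIO (adjusted p = 0.479) and -0.54 ± 0.17 SE from Lean (adjusted p = 0.276). Of the transporters of very long chains, Abcd3 gave 0.06 ± 0.08 SE against DIO, and Abcd2 lay between -8.00 and -4.47 in the 23 samples and its group ranges overlapped.

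By compartment, a division of the role groups made for description after the fits were seen, the 19 mitochondrial members had a median of -0.25 against DIO with 14 lower, and the 17 peroxisomal members -0.06 with 11 lower. Against Lean the medians were -0.15 and -0.05. Eci2 was counted in neither. The location of the proteins was not measured here, so other members may also be placed imperfectly.

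Across samples the members did not move evenly. The median deviation of the 37 members from their own averages over all samples was lowest in DIO-R 5 (-0.31), DIO-R 4 (-0.29) and DIO-R 8 (-0.28), followed by DIO 10 (-0.22) and DIO-R 10 (-0.20), and highest in DIO 1 (0.27). In those 4 DIO-R samples 30 or 31 of the 37 members lay below their median over all samples, and in DIO-R 2, 3, 6 and 7 it was 18, 12, 18 and 9. DIO 10 and DIO 2 had 32 and 30. Within DIO-R, samples 4, 5, 8 and 10 were thus the low ones for most members. This split was drawn from the members' own values, and the like counts over all genes were not made. Of the 4 low samples, 3 lay on slide 2 and DIO-R 8 on slide 3, and the median difference from DIO was -0.12, -0.27 and -0.01 within slides 1, 2 and 3. Against Lean it was -0.03, -0.39 and -0.01.

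Markers of other cell types also differed in DIO-R, some in the direction of the members and some in the other. Of 28 skeletal muscle genes 27 were lower in DIO-R than in DIO (median -0.56) and 26 lower than in Lean (-0.54), and of 16 adipocyte genes 15 were lower in each (-0.53 and -0.73), none of them passing the test. The muscle score, the mean deviation of those 28 genes, was -1.99 in DIO-R 5, -1.26 in DIO-R 10, -0.67 in DIO-R 4 and -0.37 in DIO-R 8, against -0.10 to 0.59 in the other DIO-R samples. It was -1.03 in Lean 3, -0.52 in DIO 2 and -0.50 in DIO 10. Of 8 erythrocyte genes all were lower in DIO-R than in DIO (median -1.05), while 6 were higher than in Lean (0.10). All 9 von Ebner gland genes were lower in each comparison, with medians of -0.41 against DIO and -0.99 against Lean. Of 28 keratinocyte genes, all were higher than in DIO (0.43) and 22 lower than in Lean (-0.19). Of 12 type II taste cell genes, 11 were higher than in DIO (0.27) and 6 higher than in Lean (0.01). Type I and III taste cell genes were higher in 7 of 9 against DIO (0.16) and in 6 against Lean (0.10). Of 17 macrophage and dendritic cell genes, 15 were lower than in DIO (-0.28) and 7 lower than in Lean (0.03). Fibroblast and matrix genes were lower in 19 of 22 against DIO (-0.20) and in 7 against Lean (0.15). None of these genes passed either in the DIO-R comparisons.

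**Figure D3:**
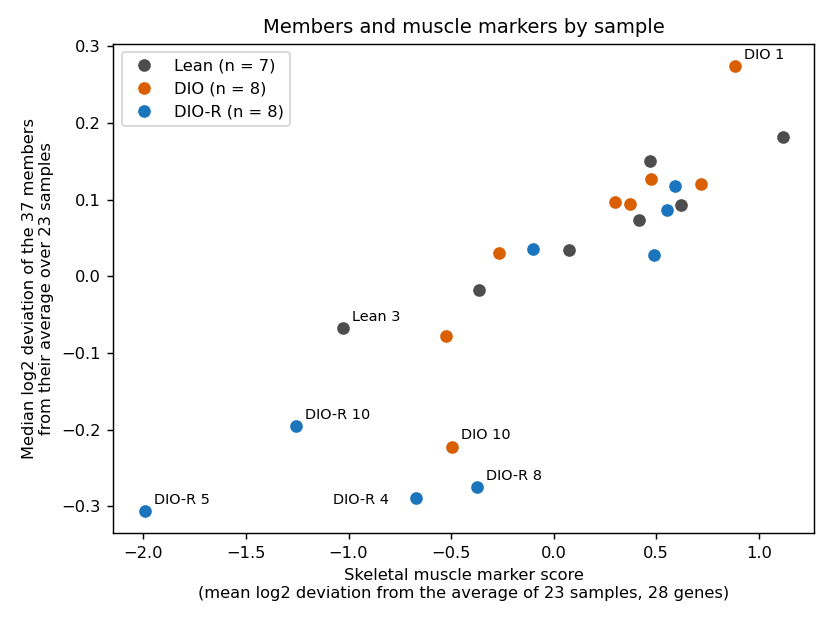
Each point is a sample, with its skeletal muscle marker score (28 genes) on the horizontal axis and the median log2 deviation of the 37 members on the vertical axis. The 5 samples lowest in the members, DIO-R 4, 5, 8 and 10 and DIO 10, all have a muscle score of -0.37 or lower, and DIO-R 4 and 8 and DIO 10 lie lower in the members than other samples of like score.

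With the muscle and adipocyte scores as covariates, the median of the members against DIO was -0.0035 in place of -0.12, with 20 lower and 17 higher. Against Lean it was 0.02 in place of -0.14, with 18 lower and 19 higher. Some mitochondrial members lay near 0, with differences from DIO of -0.04, -0.04 and -0.01 for Etfa, Etfb and Etfdh and 0.00 for Eci1. Others were smaller in size than without the scores but still lower than in DIO, Decr1 by -0.12, and Hadha and Hadhb by -0.13 and -0.14. Pex11a differed by -0.15. Eci3 differed by -0.40 from DIO and -0.47 from Lean, smaller than without the scores, and passed in both (adjusted p = 0.0312 and 0.0255). Eci2 differed by -0.35 and -0.42, in place of -0.47 and -0.55, and passed in neither, so that its call against Lean was lost (adjusted p = 0.23 and 0.211). The 2 scores themselves differ between the groups, which limits how far this fit separates them, and the adipocyte list holds Fabp4, Cd36 and Plin4, which PPAR receptors are known to control. With the erythrocyte score as a covariate the median was -0.03 against DIO and -0.15 against Lean, and Eci3 differed by -0.36 and -0.59 (adjusted p = 0.89 and 0.00667). The part of these cell types in the differences of the members was not tested beyond these fits.

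**Figure D4:**
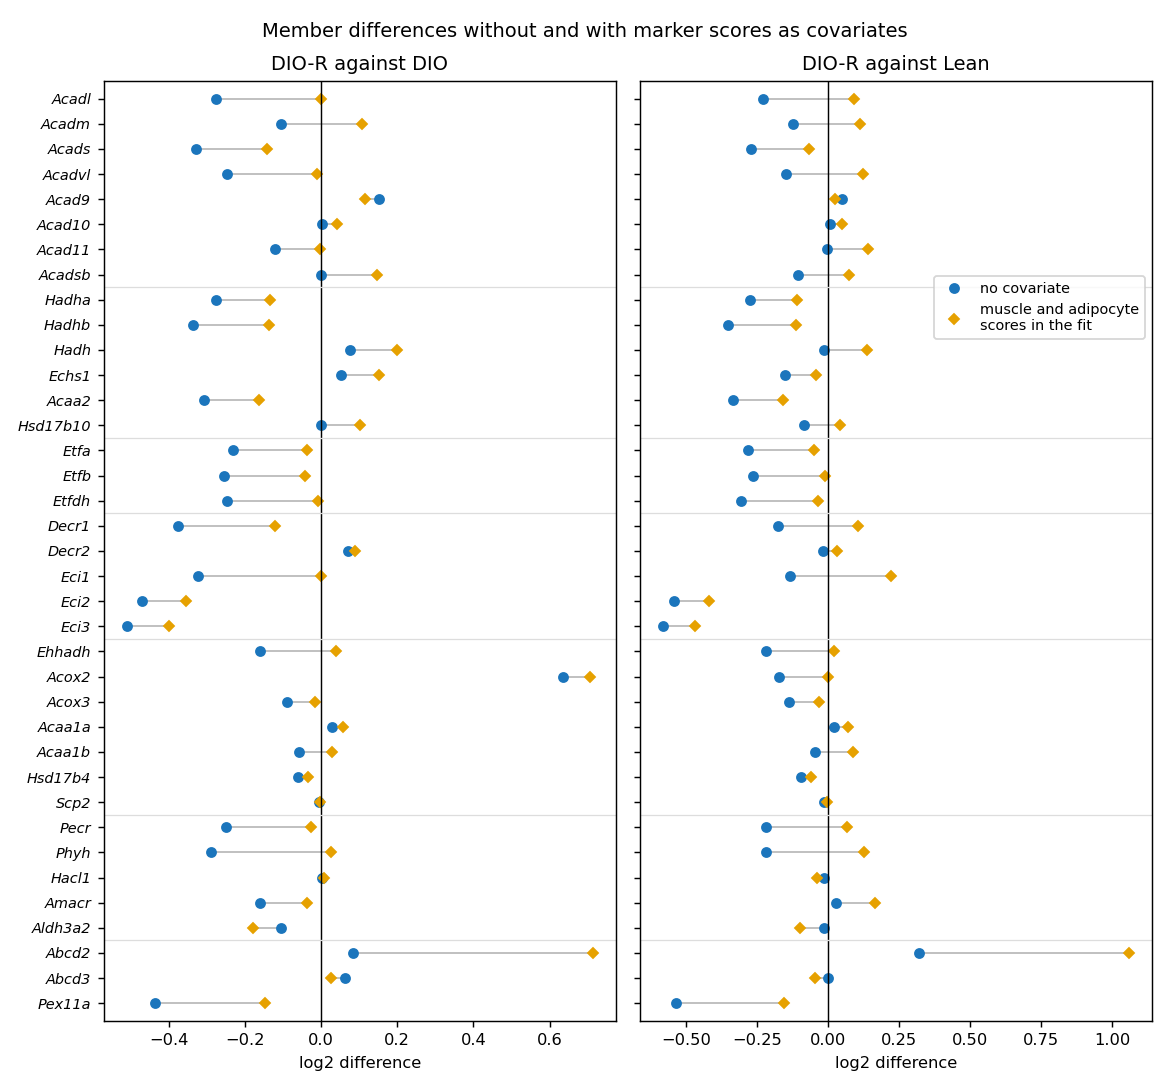
Log2 difference of each member in DIO-R against DIO and against Lean, without covariates (circles) and with the muscle and adipocyte scores in the fit (diamonds). Most members move toward or past 0, while Eci3 and Eci2 stay at -0.35 or below in both panels.

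The other genes of the pathway were taken from 7 lists, 99 genes in all. The lists were drawn up with earlier results of these data known, so the shares below are no independent support. In DIO-R against DIO 5 of them fell and 1 rose by the test, against 0.0388% of all genes lower and 0.0212% higher. Against Lean 7 fell and 1 rose, against 0.074% of all genes lower and 0.0529% higher. The carnitine shuttle carries acyl groups into mitochondria. Its entry enzyme Cpt1a fell in both comparisons (-0.49 ± 0.07 SE and -0.54 ± 0.07 SE, adjusted p = 0.00371 and 0.00127), and the carrier Slc25a20 fell against Lean (-0.56 ± 0.11 SE, adjusted p = 0.034), with -0.42 ± 0.10 SE against DIO (adjusted p = 0.204). Of 8 shuttle genes, 6 were lower in each comparison.

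Of 25 further genes of fatty acid use, many of them PPAR targets, 20 were lower in each comparison, with medians of -0.40 and -0.27. Those that fell in both were Pdk4, a kinase that restrains pyruvate dehydrogenase (-2.77 ± 0.44 SE and -2.53 ± 0.45 SE, adjusted p = 0.00647 and 0.0155), Angptl4, an inhibitor of lipoprotein lipase (-1.90 ± 0.17 SE and -1.85 ± 0.17 SE, adjusted p = 4.12e-06 and 6.52e-06), and the acyl-CoA thioesterases Acot1 (-1.24 ± 0.13 SE and -1.40 ± 0.14 SE, adjusted p = 5.39e-05 and 7.61e-06) and Acot5 (-1.28 ± 0.17 SE and -1.60 ± 0.17 SE, adjusted p = 0.000715 and 3.46e-05). Acot2, a near copy of Acot1 whose probe signal may be shared with it, fell against Lean (adjusted p = 0.034). Bdh1, an enzyme of ketone bodies, rose against DIO (0.58 ± 0.11 SE, adjusted p = 0.0391). The differences of these genes were larger than that of any member except for Cpt1a, Slc25a20 and Bdh1, which were of the size of Eci3.

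In a list of 12 PPAR receptors, partners and related regulators, Nr1d1 rose against Lean (1.20 ± 0.17 SE, adjusted p = 0.00166). Nr1d1 is a clock repressor and not a PPAR receptor, and none of the others passed in either comparison. None of the 15 peroxins, which build peroxisomes, passed, with 9 lower in DIO-R than in DIO and a median of -0.01. Of 18 other peroxisomal enzymes, 9 were lower than in DIO and 14 lower than in Lean (medians -0.04 and -0.07), and of 6 genes of amino acid acyl-CoA dehydrogenation and propionate use 4 and 1 were lower (-0.04 and 0.01), none of them passing. None of the 16 citric acid cycle genes passed either, although 15 were lower than in DIO and all 16 lower than in Lean, with medians of -0.14 and -0.09. In DIO against Lean none of the 99 genes passed by limma, and 2 had an unadjusted p under 0.05, against 8.95% of all genes.

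Promoters were found in RefSeq for 31 of the 37 members, as 250 bases before and 50 after the transcription start (GRCm38.p6). In these 300 bases, 5 motifs were searched on both strands, of which CCAAT and GGGCGG were added to the other 3 after the fits had been seen. The direct repeat bound by PPAR with RXR, 2 copies of AGGTCA with 1 base between them, was in none of the 31, against 0.0481% of all genes. TCAAGGTCA, the element of estrogen-related receptors, was also in none, against 0.466%. Exact copies of these longer motifs are so rare over all genes that their absence from 31 cannot show that the members lack such elements. Inexact copies and sites outside the window were not searched. AGGTCA, the core that both longer motifs contain, was in 5 (16.1%, against 18.1% of all genes). CCAAT was in 14 (45.2%, against 41.1%) and GGGCGG, which SP1 binds, in 23 (74.2%, against 38.2%). The upstream windows of the members had a median of 58.8% G and C against 52.0% over all genes, and the shares were not adjusted for that. These are matches of letters in a window and say nothing of binding.

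The 4 AGGTCA sites that lay upstream of the start are shown in capitals with their surroundings, as the matches of the only receptor motif found in the members. They belong to Acadm, Acadvl, Echs1 and Scp2, none of which passed in any comparison, and the fifth, in Phyh, lay after the start.
Acadm: gTGACCTtcgggctccggtgacactgg
Acadvl: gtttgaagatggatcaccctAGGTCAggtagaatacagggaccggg
Echs1: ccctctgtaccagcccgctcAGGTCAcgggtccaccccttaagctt
Scp2: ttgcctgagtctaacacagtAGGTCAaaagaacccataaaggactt
In GRCm38.p6, all on the minus strand, they are chr3:153944867-153944893, chr11:70015490-70015535, chr7:140116479-140116524 and chr4:108118631-108118676.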

How the data were processed

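The deposited scanner files hold one array each. Their intensity values (gProcessedSignal, background-subtracted) and the 0 or 1 flags for well above background, saturated or outlier spots were made by the scanner software Agilent Feature Extraction, version 10.10.1.1 per the submitters' processing notes. Probe positions are those of mm9, per the file headers. The authors' deposited values are log2 expression, whose normalization is not given in the sources used here; limma is named in the submitters' processing notes. It served as an alternative and lacks probes chosen for Abcd2 and Acox3.

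Log2 intensity minus the 75th percentile of the array's spots other than controls was computed; outlier spots were left out and spots of a probe averaged. Each gene took its brightest probe and was kept if well above background on at least 7 of 23 arrays. Groups were compared with limma 3.58.1 (R 4.3.3; lmFit, eBayes, two-sided) with a mean per group and Benjamini-Hochberg adjustment over 28366 genes. On data simulated for DIO-R against DIO (28366 genes), 36 of 100 genes changed by 0.5 (log2) and 67 of 100 changed by 1 were recovered, with 6 false calls. The simulated noise was independent between genes and had no slide effect. In the measured data, pairs of members correlated within groups (median 0.37), so these counts do not give the recovery or false calls to be had for the members. Arrays carry no read depth, and their number limits the precision. Text and plots used Python 3.11.15, pandas 2.3.3, numpy and matplotlib.

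Values by sample are given for members that passed and for the 10 members with the smallest p in each comparison, values with SE for core members, and the rest by range. Other pathway genes are named where their adjusted p was under 0.05. The members, lists and tests were chosen with earlier results of these data known. The labels do not say whether replicate numbers pair the samples, and the main fit treats them as unpaired. Over 18 same-numbered pairs the correlation of deviations ran from -0.37 to 0.33, and 4 were over 0.1. These correlations cannot decide whether same-numbered samples share a cohort or a processing step. Identity of the Eci2 and Eci3 proteins was not analysed here. Alternatives were background correction, scaling, dim-probe filters, slide and replicate blocks, variance model, samples in the fit, array weights, probe choice, the authors' table, marker scores as covariates and each sample left out.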

Additional observations from a re-analysis of the deposited data

Results flagged for a closer look

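In 6 of the 111 combinations of a member and a group, 1 sample lay apart from the rest of its group by Dixon's test; chance alone flags about 1 in 20 such groups. Hadh in Lean 9 was at 3.59, the highest of Lean. Echs1 and Hsd17b10 in DIO 10 were at 3.02 and 3.81, the lowest of DIO in each gene. Hsd17b10 in Lean 3 was at 3.99, the lowest of Lean. Acox3 in DIO-R 5 was at 1.40, the lowest of DIO-R, and Abcd3 in DIO 6 was at 3.94, the lowest of DIO. DIO 10, DIO-R 5 and Lean 3 were also 3 of the 7 samples with the lowest skeletal muscle score.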

How the results depend on the processing

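The median of the members kept its sign in both DIO-R comparisons under every alternative run except the muscle and adipocyte covariates. With these, that against Lean turned to 0.019. Several medians that kept their sign lay close to 0, namely -0.0105 against DIO and -0.0126 against Lean within slide 3. Against DIO the median was also -0.0035 with the muscle and adipocyte scores and -0.027 with the erythrocyte score. It moved beyond the spread between samples within slide 2, to -0.27 against DIO and -0.39 against Lean, and in DIO against Lean to -0.18 with the erythrocyte score as a covariate; the cause was not tested. With 1 sample left out it ran from -0.05 to 0.01 in DIO against Lean, from -0.17 to -0.09 in DIO-R against DIO and from -0.17 to -0.10 in DIO-R against Lean. The count of members that passed in DIO-R against DIO was 2 with quantile normalization, array weights or the authors' table, where Eci2 passed too (adjusted p = 0.0404, 0.0268 and 0.0136). It was 0 with no filter on dim probes (Eci3 adjusted p = 0.0547), with the erythrocyte score (0.89) and with only the 2 groups compared (0.164). It was also 0 with the keratinocyte and fibroblast scores (0.0755). The same held without DIO 1 and DIO 6 (0.168), the samples with the lowest type II taste cell marker scores (-1.28 and -0.72). With 1 sample left out the count was 0 to 1. In DIO-R against Lean it was 1 with no filter and with the muscle and adipocyte scores, 0 with only the 2 groups compared, and 1 to 2 with 1 sample left out. In DIO against Lean it was 0 throughout. With the replicate number as a block the count was 0 in both DIO-R comparisons (Eci3 -0.50, adjusted p = 0.402, and -0.61, adjusted p = 0.202). Of the 23 samples, 4 correlated best with a sample of their own number, which does not settle whether the numbers pair samples. Small changes in dim genes such as Abcd2, above background on 9 arrays, could not be detected.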
